A study of Mus musculus with 12 samples.

Results

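The primitive endoderm regulators examined here are 7 genes: the transcription factor genes Gata4, Gata6, Sox17, Sox7 and Foxa2, the receptor gene Pdgfra and the endocytic adaptor gene Dab2. Their chromatin was described from a list of accessible regions of the mouse genome. Every region of the list that overlaps the body of one of these genes, or lies within 50 kb of either end of it, was taken as belonging to that gene. This gave 76 of 170548 regions, or 0.0446%, in windows of 104 kb (Foxa2) to 241 kb (Dab2).

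The list comes from ATAC-seq, in which a transposase cuts accessible DNA, in mouse ES cells of 2 lines that carry a transgene repressed by doxycycline (dox). In ZHBTc4 cells dox at 1 µg/ml turns off OCT4, and the cells were left untreated or kept in dox for 24 hr. In 2TS22C cells the same dose turns off SOX2, and the cells were left untreated or kept in dox for 26 hr or 40 hr, with an untreated group at each time. Each of the 6 groups had 2 libraries, 12 in all. The cells of these libraries grew in serum, LIF and the 2 inhibitors of the 2i medium, which block MEK and GSK3. The peaks of both lines and of all treatments were merged into a single list of positions, with no read number, height or sample beside them. The line and the treatment in which a given region was open are therefore not known, depth is unknown, and no dox-treated cells could be compared with untreated ones. The study also used published data of ZHBTc4 cells grown in serum and LIF without 2i. Whether peaks of those cells entered the list is not stated.

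Primitive endoderm is the epithelium that forms beside the epiblast in the inner cell mass of the blastocyst and later lines the yolk sac. FGF signaling through MEK and ERK directs inner cell mass cells to this fate, GATA6 and GATA4 install it, and PDGFRA, SOX17, SOX7 and DAB2 mark successive steps of it. ES cells correspond to the epiblast side of this choice, where NANOG and the naive pluripotency factors hold GATA6 down.

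All 7 genes were represented in the list, each with a region over at least 1 TSS. Their surroundings held a median of 9 regions in 100 kb centered on the TSS, beside 10 for all protein-coding genes. In the windows of the rule, which are longer than 100 kb, Pdgfra and Foxa2 had 14 regions each and Dab2 12. Gata4 and Gata6 had 11 there, Sox17 9 and Sox7 5, and these counts are not to be set against the 10. Of the 76 regions, 51 were distal, with no annotated transcript starting within 1 kb of the center, and 25 were promoter-proximal. The distal share was 67.1%, with a 95% Wilson interval of 55.9% to 76.6%, beside 82.7% of all regions. Such intervals cover counting error only, since neighbouring regions are not replicates. By the rule every window also holds a gene with its annotated TSSs, while the whole list takes in sequence far from genes. The distal shares are therefore not like for like. The centers lay in introns for 35 regions, in intergenic sequence for 26, in UTRs for 6, in coding exons for 5 and in exons of non-coding transcripts for 4. The TSS nearest to the center belonged to the gene itself for 34 of the 76 regions, so 42 regions lay closer to the start of another transcript.

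**Figure D1:**
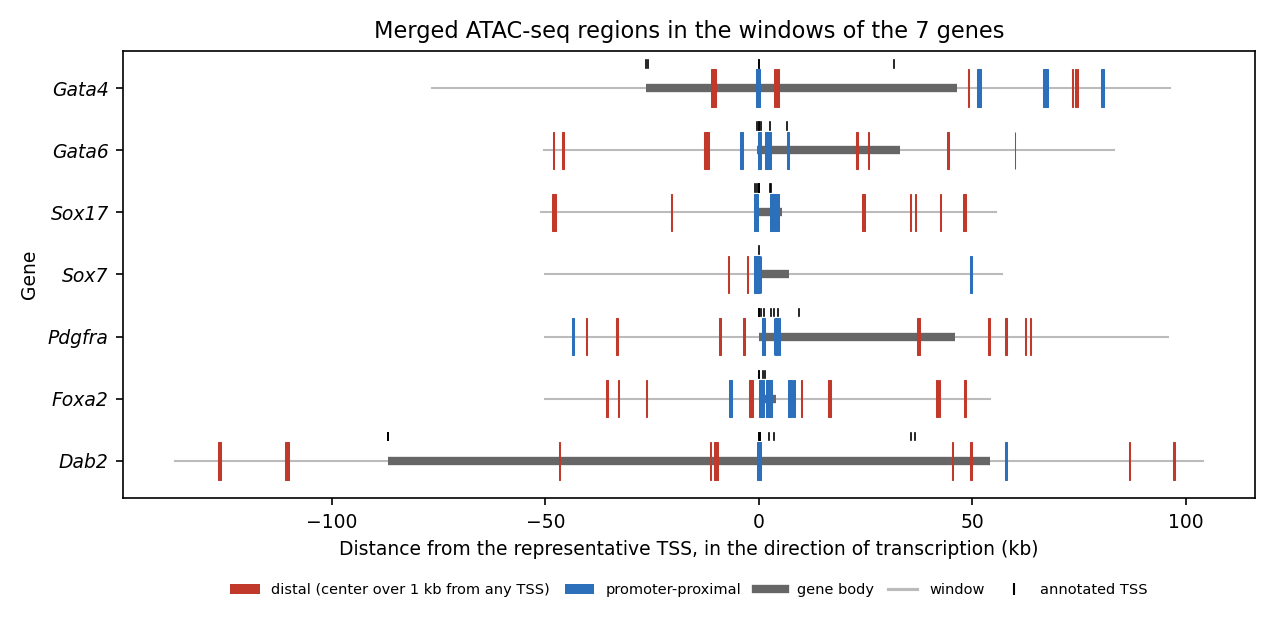
The 76 regions on a scale of distance in kb from the representative TSS of each gene, with distal regions in red, promoter-proximal regions in blue, the gene body in dark grey, the window in light grey and annotated TSSs as ticks. Region widths are to scale apart from a thin outline. Sox7 holds 5 regions, with a stretch of 48.9 kb free of regions downstream of its promoter, and the first TSSs of Dab2 lie in a stretch of 63.2 kb without any.

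Within 1 kb of a TSS, 7 of the 7 genes had a region, and a region overlapped a TSS at 7 of 7. Among 21938 protein-coding genes the same was true of 74.7% and of 68.9%, so an accessible promoter was the usual state of a gene in this list. Which of its promoters was accessible differed between genes. The 7 genes have 46 annotated TSSs, of which 21 were covered by a region and 34 had a region within 1 kb. Any of these TSSs could count for its gene. Shares per TSS were not counted over all genes, so 21 and 34 of 46 cannot be called low or high. The same holds for coverage of the representative TSS. The representative TSS was not covered at Sox17, Foxa2 and Pdgfra, where the nearest region lay 185 bp, 29 bp and 774 bp from it. At Dab2, whose product links cargo receptors to clathrin, a 998 bp region at chr15:6386173-6387170 covered 5 TSSs inside the gene. The 4 TSSs at the 5′ end of the gene, from position 6299788 to 6299868, were 23.2 kb or more from any region. At Gata4, which encodes a zinc finger factor of the early endoderm, a 974 bp region at chr14:63244905-63245878 covered 2 TSSs, including that of the representative transcript. The 2 upstream TSSs of Gata4 lay 14.7 kb and 15.3 kb from the nearest region, and the internal TSS of a short transcript lay 17.4 kb from one. At Pdgfra, the receptor for PDGF-A, the TSS of the main transcript at position 75152306 of chromosome 5 was not covered. The nearest region began 774 bp downstream of it, was 627 bp wide and was centered 1.09 kb into the gene, over the start of a shorter transcript. A pair of short transcripts that start further into the gene also had their TSSs covered.

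The DNA of covered and uncovered promoters is shown for the genes whose promoter sequences were at hand. Each runs from 250 bases before to 50 bases after a RefSeq start site on GRCm38, in the direction of transcription, and capitals mark CpG dinucleotides. The inner Dab2 promoter (chr15:6386498-6386797, plus strand) lay wholly in a region and held 19 CpGs, with a CpG observed/expected ratio of 0.72. The 5′ Dab2 promoter (chr15:6299539-6299838, plus strand) had 0 bases in a region and held 2 CpGs, with a ratio of 0.188. It is added, like the Pdgfra promoter (chr5:75152001-75152300, plus strand; 0 bases in a region, 5 CpGs), as a contrast chosen after the values were seen. Of 3 Foxa2 promoters, the one at chr2:148045899-148046198 (minus strand) lay wholly in a region, with 23 CpGs and a ratio of 0.767, and is printed. The one at the representative TSS (chr2:148046920-148047219) had 21 of 300 bases in a region and a ratio of 0.548. The remaining one (chr2:148045415-148045714) had 0 bases in a region, yet it held 13 CpGs with a ratio of 0.68, close to the covered ones.
Dab2 inner promoter, covered: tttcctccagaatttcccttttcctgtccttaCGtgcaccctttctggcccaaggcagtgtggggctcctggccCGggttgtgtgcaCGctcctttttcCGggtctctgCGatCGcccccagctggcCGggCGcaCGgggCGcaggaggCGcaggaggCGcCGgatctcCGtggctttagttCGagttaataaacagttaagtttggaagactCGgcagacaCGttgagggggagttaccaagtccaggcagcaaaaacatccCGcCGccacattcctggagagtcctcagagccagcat
Dab2 5′ promoter, not covered: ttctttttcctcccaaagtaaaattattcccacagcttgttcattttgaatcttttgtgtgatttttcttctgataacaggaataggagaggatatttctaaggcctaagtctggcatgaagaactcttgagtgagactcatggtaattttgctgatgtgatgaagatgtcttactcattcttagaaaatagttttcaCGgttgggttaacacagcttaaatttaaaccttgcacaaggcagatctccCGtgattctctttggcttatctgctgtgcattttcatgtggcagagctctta
Foxa2 promoter at 148045899-148046198, covered: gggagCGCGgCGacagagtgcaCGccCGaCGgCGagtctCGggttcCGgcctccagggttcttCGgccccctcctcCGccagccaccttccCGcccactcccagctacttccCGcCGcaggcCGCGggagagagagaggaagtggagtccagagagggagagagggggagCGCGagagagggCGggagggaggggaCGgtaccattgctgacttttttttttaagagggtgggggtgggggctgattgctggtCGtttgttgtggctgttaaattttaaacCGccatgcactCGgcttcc
Pdgfra promoter, not covered: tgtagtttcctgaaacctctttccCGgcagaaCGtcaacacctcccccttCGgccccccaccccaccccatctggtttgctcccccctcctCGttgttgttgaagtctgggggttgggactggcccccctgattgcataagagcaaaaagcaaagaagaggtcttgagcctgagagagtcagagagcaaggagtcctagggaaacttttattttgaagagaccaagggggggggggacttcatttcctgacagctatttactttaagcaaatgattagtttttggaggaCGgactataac
The 2 wholly covered promoters were 64.0% (Foxa2) and 59.3% (inner Dab2) GC. The 3 with 0 bases in a region were 51.7% (Foxa2), 51.0% (Pdgfra) and 37.7% (5′ Dab2) GC. The 5′ Dab2 promoter also held 2 matches to the GATA letters AGATAA or TGATAA on either strand, which 18.6% of 32851 RefSeq promoters of the same length hold at least once. The promoters of Gata4, Gata6, Sox17 and Sox7 are named only.

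At Sox17, Gata6 and Foxa2 the widest region of the window lay over coding sequence rather than over the first TSS. Each was still promoter-proximal by the 1 kb limit. The Sox17 region covered 2 annotated TSSs inside the gene and the Gata6 region 1. At Sox17, an HMG box factor of the endoderm, a single region of 2156 bp at chr1:4491673-4493828 was the widest of the 76 and held 1314 of the 1369 coding bases, or 96.0%. At Foxa2, a forkhead factor of endoderm and node, a 1406 bp region began 137 bp downstream of the start of a shorter transcript and held 903 coding bases, which with the promoter region brought the share to 71.0% of 1395 bases. Gata4 had 44.5% of its 1326 coding bases in a 713 bp region over a coding exon, 4.48 kb downstream of the representative TSS. Sox7, a related HMG box gene, had 20.9% of 1140 bases covered, all by its promoter region. At Dab2 and Pdgfra the share was 3.68% and 0.295%. The median of all protein-coding genes was 6.03% and the upper quartile 21.0%, and 8.48% of genes had at least 50% of their coding bases in regions. Sox17, Foxa2 and Gata6 were among those, so 3 of the 7 were. Coding coverage was looked at after the positions of the wide regions had been seen, and no test was made.

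**Figure D2:**
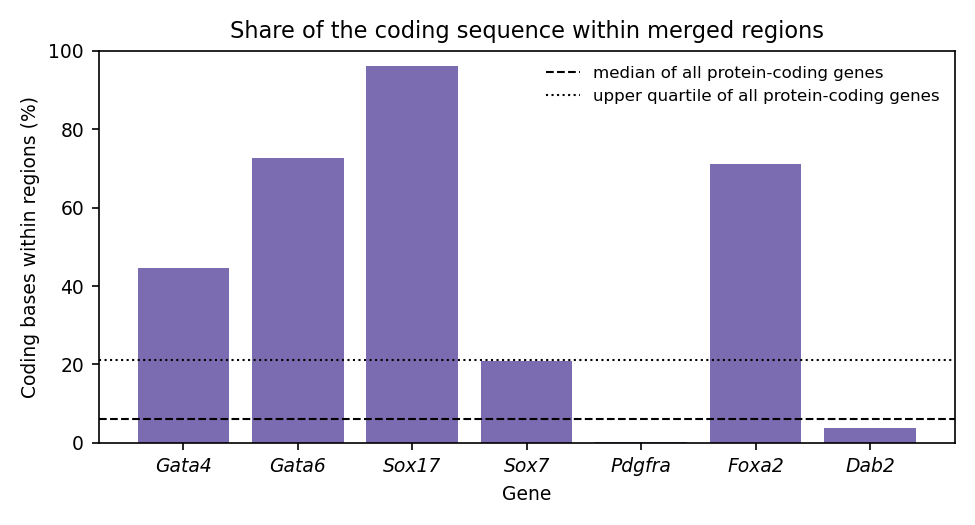
Bars give the percentage of coding bases, over all annotated transcripts of the gene, that lie within regions, with the median (dashed) and upper quartile (dotted) of 21938 protein-coding genes. Sox17 reached 96.0%, Gata6 72.7% and Foxa2 71.0%, while Pdgfra at 0.295% has a bar too low to see.

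The regions had a median width of 439.5 bp and ran from 149 to 2156 bp, beside a median of 379 bp over the list. Within each class the medians were closer: 739 bp for proximal regions of the 7 genes and 757 bp for all proximal regions, with 338 bp against 344 bp for distal ones. At least 1 kb was reached by 9 of the 76, or 11.8%, and by 9.83% of the whole list. The widest region within 1 kb of the representative TSS was 1535 bp at Sox7, which put Sox7 at the 84.1 percentile of 15495 genes with such a region. Foxa2 followed with 1159 bp at the 55.4 percentile, and the other 5 genes lay below the median of 1109 bp, with 1036 bp at Sox17, 998 bp at Dab2, 974 bp at Gata4, 706 bp at Gata6 and 627 bp at Pdgfra. At this point Pdgfra was at the 12.2 percentile.

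CpG content was higher in proximal than in distal regions by the median, with overlap. The CpG observed/expected ratio had a median of 0.705 in the 25 proximal regions and of 0.216 in the 51 distal ones, beside 0.518 and 0.217 over all proximal and all distal regions. The proximal regions at Sox7 (0.074, near Rp1l1), Dab2 (0.0865, near C9) and Foxa2 (0.167, 6.55 kb upstream) lay below the distal median. Conversely, 5 of the 51 distal regions, or 9.80%, had a GC content of at least 55% and a ratio of at least 0.6, with a 95% Wilson interval of 4.26% to 21.0%, beside 2.04% of all distal regions. These limits were set after the values were seen. The 5 regions were 3 at Gata4, 1 at Sox7 at 2.64 kb upstream of the TSS, and 1 at Foxa2 at 1.81 kb upstream. Those at Gata4 were centered in an intron, a UTR and a coding exon of the gene, the last with 590 coding bases. None of the 5 lay further than 10.6 kb from the representative TSS of its gene. The widest distal region of Gata4 was among them: 1104 bp at chr14:63255297-63256400, in an intron of the upstream transcripts, 10.6 kb upstream of the covered promoter, with a ratio of 0.853. Its central 200 bases, on the strand of the gene and with CpGs in capitals, are 77.0% GC and hold 30 CpGs. They are shown because they resemble a promoter in composition and held 0 matches to any of the 4 motifs searched.
Gata4, center of the widest distal region (chr14:63255749-63255948, minus strand): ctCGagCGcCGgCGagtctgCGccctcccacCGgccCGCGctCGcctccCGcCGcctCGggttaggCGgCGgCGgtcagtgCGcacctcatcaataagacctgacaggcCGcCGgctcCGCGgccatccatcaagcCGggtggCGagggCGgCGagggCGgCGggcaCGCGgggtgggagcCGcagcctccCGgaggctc

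**Figure D3:**
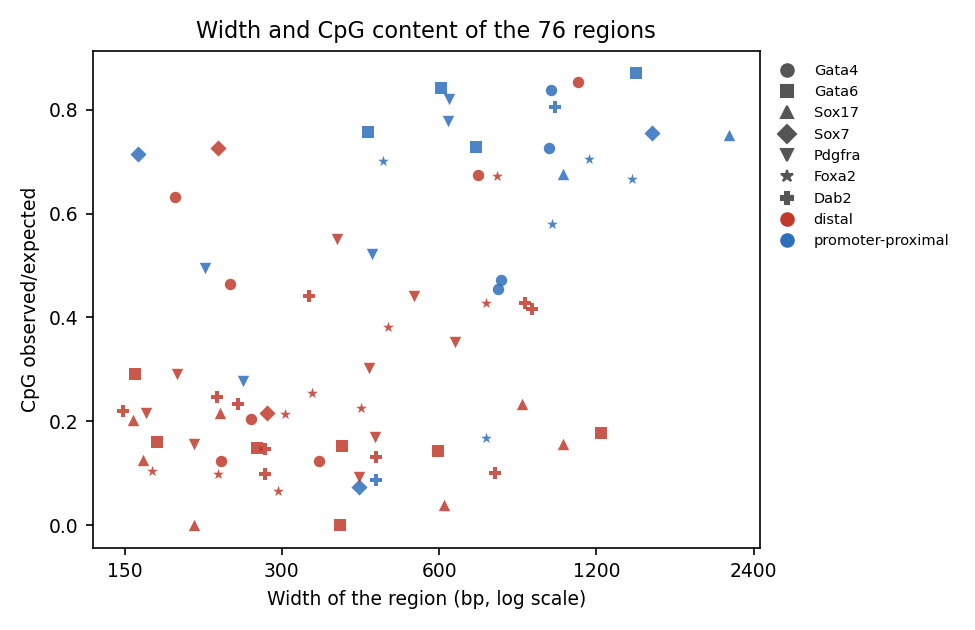
Each point is 1 of the 76 regions, with its width in bp on a log scale and its CpG observed/expected ratio, in red for distal and blue for promoter-proximal regions and with a symbol for each gene. Distal regions have a median of 0.216 and an upper quartile of 0.368. The 5 highest, at Gata4, Sox7 and Foxa2, have ratios of 0.632 to 0.853, and the next is 0.551, at Pdgfra.

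Distal regions were distributed differently around each gene. Gata4 (ENSMUSG00000021944.15; chr14:63198922-63271692, minus strand) had 0 regions in the 50 kb upstream of the gene body, and a stretch of 65.3 kb without a region ran from its widest distal region to the edge of the window. Of its 11 regions, 7 lay downstream, where the nearest TSSs were those of Neil2, a DNA glycosylase gene (2 regions), and Fdft1, which encodes squalene synthase (5 regions). Only 4 regions lay in the gene. Sox7 (ENSMUSG00000063060.6; chr14:63943673-63950732, plus strand) likewise had few: its 4 regions near the gene lay between 7.05 kb upstream and 0.50 kb downstream of the TSS, and the fifth lay 49.66 kb downstream at Rp1l1. Sox17 (ENSMUSG00000025902.13; chr1:4490931-4497354, minus strand) had 7 distal regions, 2 upstream and 5 downstream, of which the closest were centered 20.46 kb upstream and 24.52 kb downstream of its TSS. The widest of them, 1036 bp, was centered 47.93 kb upstream.

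Foxa2 (ENSMUSG00000037025.11; chr2:148042877-148046969, minus strand) had regions on both sides, of which 7 lay in or at the start of the lincRNA 9030622O22Rik downstream and 5 lay upstream. Its widest distal region, 775 bp, was centered 1.81 kb upstream of the representative TSS. That TSS itself lay 29 bp outside the 1159 bp promoter region at chr2:148045782-148046940, which covered 2 other starts of the gene. Pdgfra (ENSMUSG00000029231.15; chr5:75152292-75198215, plus strand) had 5 regions upstream, 5 in the gene and 4 downstream. Those in the gene comprised a group of 4 between 1.09 kb and 4.86 kb from the TSS and the widest distal region, 643 bp in an intron 37.34 kb into the gene. Dab2 (ENSMUSG00000022150.16; chr15:6299788-6440712, plus strand) had 7 regions within the gene, 2 upstream and 3 downstream. Its widest distal region was 902 bp, centered 9.95 kb upstream of the inner promoter, and for 5 of its regions the nearest TSS was that of C9, a complement gene downstream.

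Gata6, the zinc finger factor that acts first in this lineage (ENSMUSG00000005836.10), spans positions 11052064 to 11085635 of chromosome 18 (plus strand). A 706 bp region covered its representative TSS and also the start of the non-coding transcript 1010001N08Rik on the opposite strand, and since a region has no strand the starts of the pair cannot be told apart. A second region of 1427 bp covered 1117 bases of the coding sequence and 1 annotated TSS inside the gene. Its CpG observed/expected ratio was 0.87, the highest of the 76. The share of coding bases covered was 72.7% of 1767. Of its 7 distal regions, 3 lay upstream, within the body of 1010001N08Rik, and the widest of these was 1224 bp, centered 12.30 kb upstream. The other 4 lay in or beyond the gene at 23.02 kb, 25.64 kb, 44.35 kb and 59.98 kb from the TSS.

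To compare genes of different length, regions were counted in 100 kb centered on the representative TSS of every protein-coding gene. The count was 14 at Foxa2, 10 at Gata6 and Pdgfra, 9 at Sox17, 7 at Dab2 and 5 at Gata4 and Sox7. At Dab2 the representative TSS was a covered inner one, at position 6386598, and its 100 kb did not reach the 5′ TSSs. The median of 21938 genes was 10, with quartiles of 6 and 15, and 783 genes had 0. Foxa2 was thus at the 68.6 percentile, Gata6 and Pdgfra at 48.2, Sox17 at 42.8, Dab2 at 32.0, and Gata4 and Sox7 at 21.9. The median of the 7 was 9, or 42.8 as a percentile, and 1 of the 7 lay above the median of all genes. Counting distal regions alone gave a median of 6 beside 7 for all genes. Bases covered by regions ran from 2622 at Sox7 to 8511 at Foxa2, beside a median of 5655 for all genes, and on this measure Gata6 and Sox17 joined Foxa2 above the middle, at the 55.1 and 57.1 percentiles. The longest stretch without a region in the same 100 kb had a median of 32.8 kb over the 7 and of 25.6 kb over all genes. Gene density also differed: the 100 kb held a median of 0 other protein-coding TSSs at the 7 genes and of 2 at all genes. Its part in the counts was not tested.

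Other gene lists gave higher counts. The 7 naive pluripotency genes taken for comparison (Nanog, Klf4, Esrrb, Tfcp2l1, Zfp42, Prdm14 and Tbx3) had a median of 22 regions, with a range of 8 to 26, and 6 of 7 lay above the median of all genes. They too had a median of 0 other protein-coding TSSs in the 100 kb, while the median was 1 at the other endoderm genes and 1.5 at the family members described next. The 22 other genes of primitive and extra-embryonic endoderm had a median of 13.5, and 16 of 22 lay above the median of all genes. Highest among them were Sparc with 24 and Apoe with 23, a secreted matrix protein gene and an apolipoprotein gene, and the laminin genes Lamb1 and Lamc1 with 21 each. Lowest were Foxq1 and Afp with 4 each, and Fst and Plat with 6 each. Col4a1 and Col4a2, which start head to head, share their 14 regions. Of these 22 genes, 18 had a region within 1 kb of a TSS.

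The relatives of the 7 genes in their own families also had more. Their median was 15 regions and 8 of 10 lay above the median of all genes. Gata3 had 21, Gata1 18, Gata2 16 and Gata5 9, beside 5 at Gata4 and 10 at Gata6. Sox18 had 14, beside 9 at Sox17 and 5 at Sox7. Foxa3 had 16 and Foxa1 12, so that Foxa2 with 14 lay between them. Pdgfrb had 18 and Kit 14, beside 10 at Pdgfra, and Dab1 had 5 beside 7 at Dab2. These counts carry no replicate error, and the lists were described without a test.

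**Figure D4:**
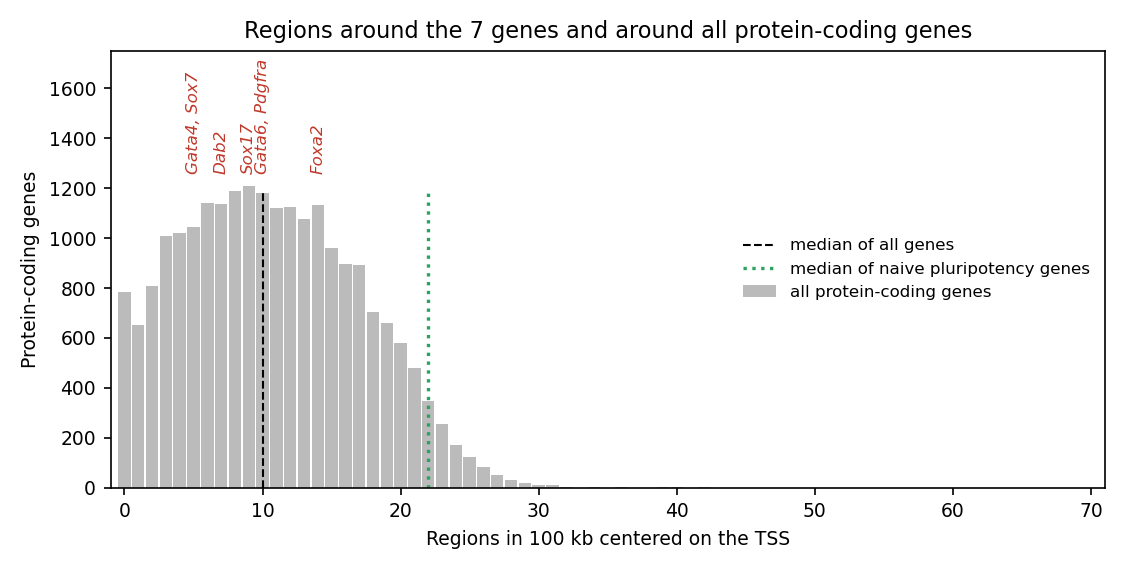
Grey bars give the number of protein-coding genes with each number of regions in 100 kb centered on the TSS, and red names mark the 7 genes. The 7 lie between 5 and 14 regions around the median of 10 for all genes (dashed), and all lie below the median of 22 for the naive pluripotency genes (dotted).

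The central 200 bp of each region were searched on both strands for letters that GATA, OCT, SOX and FOX factors are known to bind: AGATAA or TGATAA for GATA, ATGCNAAT for OCT, ATTGTT for SOX and TGTTTAC for FOX. A match describes the sequence and is not a bound site, and the SOX and FOX letters can overlap in TGTT. Among the 51 distal regions, 11 held a GATA match (21.6%, 95% Wilson interval 12.5% to 34.6%), beside 16.5% of all 141108 distal regions. SOX matches were found in 10 (19.6%, 11.0% to 32.5%, beside 12.4%), FOX matches in 3 (5.88%, 2.02% to 15.9%, beside 3.45%) and an OCT match in 1 (1.96%, 0.347% to 10.3%, beside 3.89%). In each of these 4 cases the share of all distal regions lay within the interval of the 51, so no difference was detectable with this number of regions. The GATA result depended on the letters: AGATAA alone was matched in 10 of the 51 (19.6%, 11.0% to 32.5%), beside 9.89% of all distal regions, which lies just below the interval. None of the 4 kinds of match was found in 30 of the 51, or in 68.9% of all distal regions. Split by gene, 4 of the 7 distal regions of Gata6 held a GATA match, as did 2 of 7 at Sox17 and 2 of 9 at Pdgfra. At Dab2 2 of 10 did and at Sox7 1 of 2, while 0 of 7 at Gata4 and 0 of 9 at Foxa2 did. Outside the central 200 bp, distal regions of Gata4 and Foxa2 held GATA matches too. These numbers are too small to compare the genes. The single OCT match in the central 200 bp lay in the intron of Gata6 at 23.02 kb from the TSS. The same center also held a GATA match. In the 25 proximal regions, GATA matches were found in 3 (12.0%, beside 8.1% of all 29440 proximal regions), SOX in 2 (8.0%, beside 5.46%) and FOX in 1 (4.0%, beside 1.85%). OCT matches were found in 0, for which the Wilson interval allows a share of up to 13.3%, beside 1.7% of all proximal regions.

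**Figure D5:**
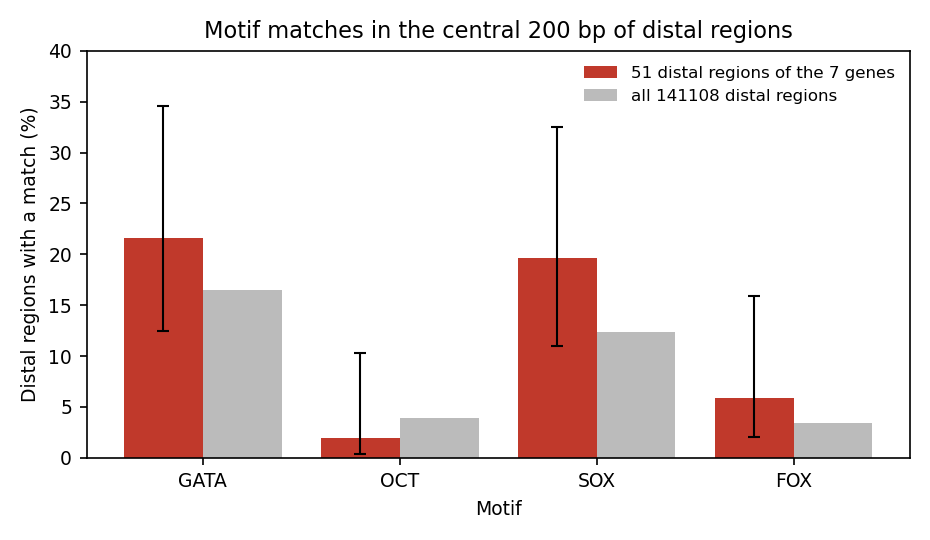
Red bars give the percentage of the 51 distal regions of the 7 genes with a match in the central 200 bp, with 95% Wilson intervals as error bars, and grey bars the percentage of all 141108 distal regions. All 4 grey bars end within the intervals of the red ones, for example 16.5% against 12.5% to 34.6% for GATA.

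The matches are shown in the centers of the widest distal regions that held one, on the strand of the gene in GRCm38, with the matching letters in capitals. TTATCT and GTAAACA are the GATA and FOX letters read on the opposite strand. The Pdgfra region 57.91 kb from the TSS is added, and was chosen after its values were seen. It alone of the 51 distal regions held 3 of the 4 kinds of match in its central 200 bp. Among all distal regions 0.286% did. Over its whole 281 bp the Sox7 region also held 3 kinds, GATA, OCT and SOX.
Sox7, 7.05 kb upstream, GATA match (chr14:63936523-63936722, plus strand): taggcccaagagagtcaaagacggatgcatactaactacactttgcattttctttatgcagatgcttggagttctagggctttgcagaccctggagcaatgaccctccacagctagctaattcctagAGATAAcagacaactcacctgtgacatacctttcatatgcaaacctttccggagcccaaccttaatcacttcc
Sox17, 47.93 kb upstream, FOX match (chr1:4544247-4544446, minus strand): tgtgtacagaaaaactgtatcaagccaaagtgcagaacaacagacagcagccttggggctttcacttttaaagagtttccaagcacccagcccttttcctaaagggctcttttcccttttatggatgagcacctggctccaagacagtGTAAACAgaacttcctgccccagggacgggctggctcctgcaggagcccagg
Pdgfra, 37.34 kb downstream, GATA match (chr5:75189549-75189748, plus strand): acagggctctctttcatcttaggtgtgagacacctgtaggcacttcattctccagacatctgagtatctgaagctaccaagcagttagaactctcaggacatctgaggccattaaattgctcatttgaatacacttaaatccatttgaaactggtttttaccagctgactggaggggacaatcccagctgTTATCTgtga
Pdgfra, 57.91 kb downstream, FOX, GATA and SOX matches (chr5:75210120-75210319, plus strand): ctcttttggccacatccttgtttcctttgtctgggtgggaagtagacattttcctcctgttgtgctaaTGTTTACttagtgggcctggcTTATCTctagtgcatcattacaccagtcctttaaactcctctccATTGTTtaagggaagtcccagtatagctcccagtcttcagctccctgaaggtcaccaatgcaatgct
In the last of these the 3 matches lay apart, in the order FOX, GATA and SOX. The region was 421 bp wide, lay in intergenic sequence beyond the end of Pdgfra and had a CpG observed/expected ratio of 0.0926. The Sox7 region, 281 bp wide, and the intronic Pdgfra region, 643 bp wide, had ratios of 0.216 and 0.353, and the Sox17 region had 0.156. These are ratios of whole regions, and they lay below those of the covered promoters above, 0.72 and 0.767. In the printed centers the ratio was 0.202 at Sox7, 0.0774 at Sox17 and 0.0 in both Pdgfra regions.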

How the data were processed

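The deposited file gives, for every merged region, a chromosome and 2 positions in bp, with no unit of expression or signal. Per the study's methods and the submitters' processing notes, the authors aligned reads to mm10 (GRCm38) with STAR 2.6.1c, removed duplicates with Picard, called peaks with MACS2 2.1.1.20160309 and used bedtools to merge them over the experiments in both lines. Merging joins overlapping peaks of different libraries, so a width can exceed that of a peak in any 1 library. How low a peak could be and still enter is not known from the list. For their counts the authors also removed peaks above a size limit, peaks overlapping those of input samples and blacklisted peaks. The list used here held regions of up to 58315 bp, and no such filter was applied to it here.

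Positions were counted from 1 and joined to GENCODE M21 and the GRCm38 genome. The representative TSS of a gene was that of its transcript with the best APPRIS class, principal before alternative before none. Ties went to the GENCODE basic set and then to the most 5′ TSS. Percentiles are mid-ranks over 21938 protein-coding genes. The CpG observed/expected ratio is the number of CpGs times the length, divided by the product of the numbers of C and G. Promoter sequences are from the RefSeq annotation of GRCm38. The rule for names took the 7 genes, their TSS regions and widest distal regions, the genes in their windows, 10 family members and the 3 highest and 3 lowest of 22 endoderm genes, with ties. Genes and lists were chosen with earlier results of these data known. With no value per sample there was no test, and alternatives changed the window, width filter, joining, TSS set, distance, counting window and motif settings. Functions were tested on simulated data. Python 3.11.15, NumPy 2.4.6, pandas 2.3.3, pysam 0.24.0, samtools 1.23.1 and matplotlib 3.10.9 were used.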

Additional observations from a re-analysis of the deposited data

How the results depend on the processing

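The number of regions depended on the window: 49 with 20 kb to either side of the gene bodies and 120 with 100 kb, in place of 76. It was 66 with regions of at least 200 bp and 74 with regions under 100 bp apart joined. The median percentile of the 7 genes was 37.7 by bases covered and 46.2 by regions in 40 kb, in place of 42.8, and 42.9 by distal regions. Gata4 and Sox7, the lowest at 21.9, both stood at 46.2 in 40 kb, where Pdgfra stood at 68.6 and Sox17 was lowest at 23.1, and by distal regions Sox7 stood at 12.8, so the order among the genes changed with the measure. The distal share was 73.7% with TSSs of protein-coding genes only, beside 86.5% of all regions. By distance from the region edge it was 67.1% beside 81.4%, and with regions of at least 200 bp 63.6% beside 80.8%. The count of genes with a region at the TSS stayed at 7. In the central 400 bp, GATA matches were in 33.3% of the distal regions beside 30.3% of all, OCT in 5.88% beside 6.71%, SOX in 25.5% beside 21.6% and FOX in 7.84% beside 6.64%, and AGATAA alone was in 19.6% by the central 200 bp beside 9.89%. No paired analysis was possible because positions are the only values in the list used here, and for the same reason no replicate was left out in turn. A region missing from the list may be closed or may have been below the peak caller's threshold at the depth of these libraries.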
